A study of Mus musculus with 4 samples.

Results

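The respiratory chain genes described here are the 106 genes whose symbols begin with *mt-Nd*, *mt-Co*, *mt-Atp*, *mt-Cytb*, *Nduf*, *Cox4* to *Cox8*, *Uqcr* or *Atp5*, or are *Sdha* to *Sdhd*, among 27612 genes listed in at least 1 table of the series. Of these, 13 are encoded in the mitochondrial genome and 93 in the nucleus. The data are single-cell transcriptomes of 4 mouse neural stem cell (NSC) lines derived from 129/Sv epiblast stem cells, with 1 BD Rhapsody library per line, a method that captures the polyA RNA of each cell on a bead with its own barcode in a microwell. XN4 and XN1 were cultured with 10 µM XAV939, an antagonist of Wnt signaling, obtained from different suppliers. The paper reports that the XAV939 used for XN1 formed crystals in culture, and reasons that its effective concentration must have been lower. KN1 received neither XAV939 nor CHIR99021, and CN4 received 2 µM CHIR99021, an agonist of Wnt signaling. The culture medium of all 4 lines contained EGF and FGF2, each at 10 ng/ml, and cells of each line were kept cold in a preservative before the libraries were made. As a line is 1 library, no test between lines was possible. Intervals below cover counting error of reads only, and a difference between lines cannot be told apart from one between libraries.

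The respiratory chain passes electrons from NADH and succinate to oxygen through complexes I to IV in the inner mitochondrial membrane and pumps protons, whose return through ATP synthase (complex V) drives ATP synthesis. Its subunits come from separate genomes. The mitochondrial genome encodes membrane subunits of complexes I, III and IV and of ATP synthase, whereas complex II and all other subunits are encoded in the nucleus, translated in the cytosol and imported. Proliferating neural progenitors also rely on glycolysis, and the capacity for respiration is known to grow as neurons differentiate.

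XN4, XN1, and CN4 have tables of reads in every cell, with 93096507 to 180825519 reads in 8741 to 18157 cells and medians of 5981.5 to 12615 reads per cell. A second set of tables, from which the authors had removed mitochondrial and ribosomal protein genes, covers 3448 to 3975 cells in each of the 4 lines and is the only source used for KN1. Levels of nuclear genes are given as reads per 10000 reads of that second set, summed over the cells of a line. A pair of lines shared 14 to 21 cell barcodes in these tables. The libraries of XN4 and KN1 stood apart. In the library labelled XN4, *Sox2* was captured in 0.560% of cells, against 62.2% in XN1. *Fabp7*, another neural stem cell marker, had 0 reads in the 8741 cells of the full XN4 table, a count that allows up to 3 reads, and was captured in 85.5% of cells in that of XN1, whereas in XN4 the connective tissue genes *Col3a1* and *Dcn* were captured in 97.8% and 87.2%. Of 10 neural stem cell markers, 10 were captured in at least 10% of cells in CN4, 8 in XN1, 6 in KN1 and 3 in XN4, and of 6 connective tissue genes 5 were in XN4, 1 in XN1 and 0 in KN1 and CN4. The summed level of the connective tissue genes was 74.2 per 10000 in XN4 and at most 0.954 in the other lines. XN4 therefore denotes the library so labelled and not a cell type. The labels also give each library a line code that differs from its title, and the titles are used here. The part of the cells with connective tissue genes in the values of XN4 was not tested. In KN1, the median cell had 833 genes, against 2257 to 2824 in the other lines, a captured gene had 7.39 reads per cell against 2.14 to 3.90, and *Malat1*, a long noncoding RNA that stays in the nucleus, had a level of 320 per 10000, against 32.8 in CN4, 53.0 in XN1 and 142 in XN4.

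The mitochondrial genes lie close together on chromosome M (GRCm38), from *mt-Nd1* at 2751-3707 to *mt-Cytb* at 14145-15288, and 4 pairs of them overlap. The stretch shared by *mt-Atp8* and *mt-Atp6* is printed because a read within these 43 bases (chrM:7927-7969) could be assigned to either gene, so the values of *mt-Atp8*, 204 bases long, are uncertain. Capitals mark the start codon of *mt-Atp6* and the stop codon of *mt-Atp8*.
mt-Atp8 and mt-Atp6 overlap: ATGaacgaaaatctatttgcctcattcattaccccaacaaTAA

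Nuclear genes of the chain are known to share promoter elements for NRF1, for ETS factors such as GABP, and for YY1. RefSeq promoter windows (GRCm38.p6, 250 bases before to 50 after the start, both strands searched) were matched for 74 of the 93 nuclear members. The NRF1 core GCGCATGC was found for 12 of these 74 genes (16.2%), against 3.05% of 27025 genes in the table and 6.64% of the 7972 that also passed the filter on low values described below. The YY1 core AAGATGGC was found for 10 (13.5%), against 3.19% and 5.80%. The ETS core CCGGAAG was found for 18 (24.3%), against 9.93% and 21.5%, so that its share in the members was close to that in captured genes. The TATA box TATAAA was found for 7 (9.46%), against 15.7% and 8.39%. For the 71 that passed the filter, the shares were 16.9% for NRF1, 14.1% for YY1, 25.4% for ETS and 7.04% for TATAAA. The NRF1 and ETS cores stood together in 5 members, *Atp5k*, *Atp5l*, *Cox6a1*, *Sdhb* and *Uqcr11*. Of these, *Cox6a1* and *Sdhb* are shown with *Cox8a* and *Cox8b*, the widely expressed and the muscle-type isoform of the same subunit, as examples of promoters of captured and of rarely captured members. Each runs from 250 bases before to 30 bases after the start, and capitals mark matches to the cores, of which NRF1 matches on both strands overlap in *Cox6a1*. The TATAAA of *Cox8b*, at position 5, and the ETS core of *Sdhb*, at position 7, lie after the annotated start. They are matches of letters only. *Cox6a1* is at chr5:115348929-115349208 (minus strand), *Sdhb* at chr4:140961021-140961300 (plus strand), *Cox8a* at chr19:7217587-7217866 (minus strand), and *Cox8b* at chr7:140900417-140900696 (minus strand).
Cox6a1: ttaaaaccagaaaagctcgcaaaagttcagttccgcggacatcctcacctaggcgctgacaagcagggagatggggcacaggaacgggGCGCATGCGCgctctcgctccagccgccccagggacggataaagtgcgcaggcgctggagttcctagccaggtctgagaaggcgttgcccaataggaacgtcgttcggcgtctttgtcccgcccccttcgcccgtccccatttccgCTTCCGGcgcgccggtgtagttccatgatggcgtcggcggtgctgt
Sdhb: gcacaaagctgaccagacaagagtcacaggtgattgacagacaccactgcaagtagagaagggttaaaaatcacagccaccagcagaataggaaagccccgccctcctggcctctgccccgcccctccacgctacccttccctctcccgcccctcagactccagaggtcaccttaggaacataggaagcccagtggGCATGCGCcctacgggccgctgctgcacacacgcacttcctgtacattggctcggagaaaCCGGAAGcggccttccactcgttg
Cox8a: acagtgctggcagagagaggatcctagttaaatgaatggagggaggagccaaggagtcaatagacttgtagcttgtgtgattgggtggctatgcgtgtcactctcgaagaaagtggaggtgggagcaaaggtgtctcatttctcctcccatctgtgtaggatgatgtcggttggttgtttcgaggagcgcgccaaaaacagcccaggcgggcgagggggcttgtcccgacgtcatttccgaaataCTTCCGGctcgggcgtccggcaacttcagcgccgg
Cox8b: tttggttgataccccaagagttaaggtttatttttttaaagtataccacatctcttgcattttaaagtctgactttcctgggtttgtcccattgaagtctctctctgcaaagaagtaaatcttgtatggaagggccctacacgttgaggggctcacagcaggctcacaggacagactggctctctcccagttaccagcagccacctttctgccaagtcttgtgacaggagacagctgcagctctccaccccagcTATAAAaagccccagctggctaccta

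The mitochondrial genes took a larger share of reads in XN4 than in XN1 and CN4, in which the shares were nearly the same. Pooled over cells, they held 22.60% of all reads in XN4 (exact binomial 95% interval 22.59% to 22.61%). The share was 15.124% in XN1 (15.116% to 15.131%), against 15.122% in CN4 (15.117% to 15.1275%). The intervals of XN1 and CN4 overlapped and that of XN4 lay above both. Nuclear members held 1.15% of all reads in XN4, 1.44% in XN1 and 1.63% in CN4, and were thus lowest in XN4. Mitochondrial reads are part of this denominator. The reads on mitochondrial genes per read on nuclear members were accordingly 19.6 in XN4, 10.5 in XN1 and 9.29 in CN4. Mitochondrial genes of KN1 were not analysed here.

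The higher share in XN4 went with a broad spread among its cells. The median share per cell was 26.0% in XN4, with quartiles at 16.1% and 39.7%. The highest shares of a cell were 80.6% in XN4, 76.1% in XN1 and 74.6% in CN4. In XN1 the median was 14.7%, with quartiles at 11.9% and 19.04%, and in CN4 it was 14.7%, with quartiles at 11.9% and 18.2%. The ranges of the lines thus overlapped, and the upper quartile of XN4 was above the 95th percentiles of XN1 and CN4, 24.8% and 28.5%. Over 50% of reads were mitochondrial in 921 of 8741 cells of XN4 (10.5%), 12 of 14452 of XN1 (0.0830%), and 98 of 18157 of CN4 (0.540%). At the other end, a share under 2% was found in 20, 5 and 3 cells of XN4, XN1 and CN4.

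**Figure D1:**
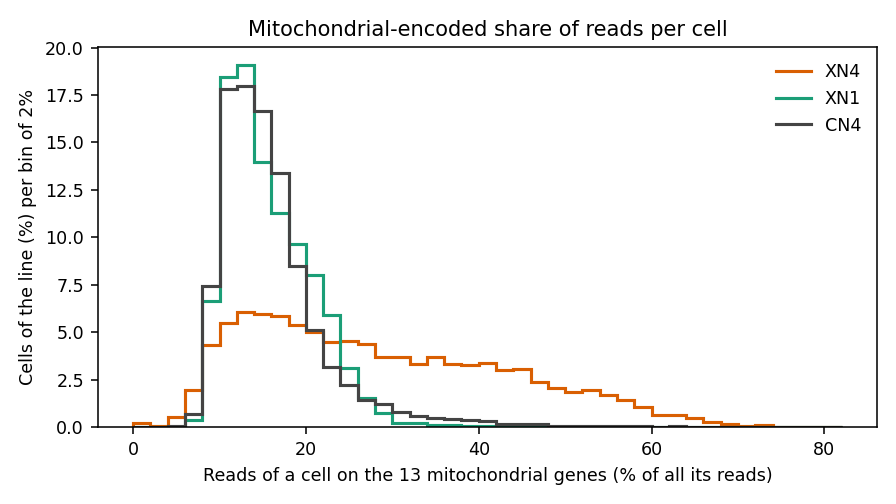
Distribution of the mitochondrial-encoded share of reads over the cells of XN4, XN1, and CN4, as the percent of cells in bins of 2%. XN1 and CN4 peak between 10% and 16% and reach 76.1% and 74.6%, while XN4 has more of its cells at higher shares, with a median of 26.0% and a highest value of 80.6%.

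The mitochondrial share was higher in cells with fewer reads in each of the 3 lines. In XN4, the median share was 41.8% in the quintile of cells with the fewest reads (median 5471 reads) and 13.6% in that with the most (31247 reads). In XN1 the same values were 19.2% (3349 reads) and 13.3% (9961 reads), and in CN4 they were 18.0% (4923 reads) and 12.8% (15878 reads). The deepest quintile of XN4 had a share within the range of the XN1 and CN4 quintiles, which were shallower. At nearer depths XN4 was higher. Its quintile with a median of 8756.5 reads had 36.2%, against 14.2% in CN4 at 9173.5 and 13.3% in XN1 at 9961. Its quintile at 12616 reads had 27.4%, against 13.6% in CN4 at 11517. Across cells of XN4 (n = 8741), Spearman's rho between the mitochondrial share and the reads of all other genes was -0.78, and it was -0.47 in XN1 (n = 14452) and -0.46 in CN4 (n = 18157). These reads also enter the denominator of the share, and the part of depth in the difference between lines was not tested.

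Cells with more mitochondrial reads had fewer reads on the nuclear members among the reads that were neither mitochondrial nor ribosomal protein. In XN4, the nuclear members held 1.89% of these reads in the quintile with the lowest mitochondrial share and 1.14% in the highest. In XN1 the values were 1.97% and 1.36%, and in CN4 2.39% and 1.79%. The nuclear share was thus lower in the highest quintile of each line, although mitochondrial reads were not in this denominator. With each cell thinned to 3000 reads, Spearman's rho between the shares was -0.41 in XN4 (n = 8678), -0.40 in XN1 (n = 13534) and -0.38 in CN4 (n = 17952), where points of a line share a library. Other measures moved along. From the lowest to the highest quintile of mitochondrial share, *Malat1* went from 17.4 to 64.5 per 10000 in CN4, from 36.9 to 99.8 in XN1 and from 60.8 to 363 in XN4. Over the same quintiles, ribosomal protein genes went from 9.39% to 5.94%, from 7.96% to 4.21% and from 9.56% to 6.76% of non-mitochondrial reads. Their part in these relations was not tested.

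**Figure D2:**
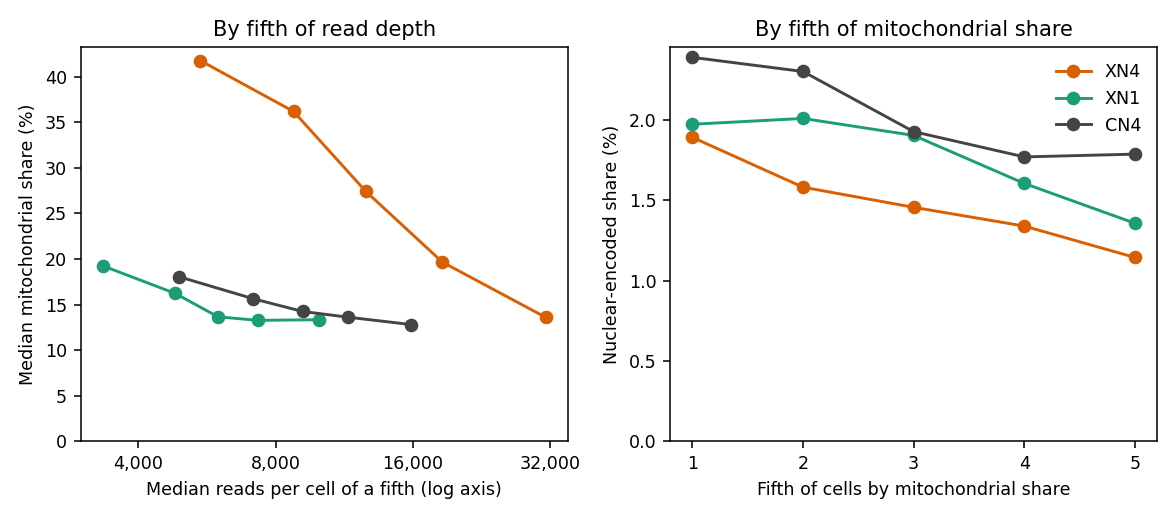
Left, median mitochondrial share of reads (%) against the median reads per cell (log axis) of quintiles of cells by depth. Right, share of nuclear-encoded members (%) among reads without mitochondrial and ribosomal protein genes, pooled over quintiles of cells ordered by mitochondrial share, from the lowest (1) to the highest (5). In each line the nuclear share is lower in quintile 5 than in quintile 1, from 1.89% to 1.14% in XN4.

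Cells with G2-M transcripts had a lower mitochondrial share. After thinning to 3000 reads, cells with at least 2 of 8 G2-M genes had a median share of 21.7% in XN4 against 27.5% in the other cells, 12.5% against 15.2% in XN1, and 14.1% against 15.8% in CN4. Cells with at least 2 of these genes were 22.3% of the thinned cells in XN4, 29.3% in XN1 and 62.5% in CN4. These cells also had more reads before thinning, with medians of 18455 against 11258 in XN4, 6804 against 5963.5 in XN1, and 10167.5 against 8014 in CN4. Pooled nuclear shares in the same cells were 1.69% against 1.41% in XN4, 1.82% against 1.75% in XN1, and 2.01% against 1.98% in CN4. In the smaller tables the order was reversed in CN4, at 1.98% against 2.01%, and KN1 had 1.22% against 1.10%. The 3000 reads of a cell included its mitochondrial reads. A higher mitochondrial share thus left fewer reads in which G2-M genes could be captured. The part of this and of depth in these differences was not tested. Nor was the part of the unequal numbers of G2-M cells in the differences between lines.

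By complex, the make-up of the mitochondrial reads was similar in the 3 lines. The 3 subunits of cytochrome c oxidase (complex IV), *mt-Co1*, *mt-Co2* and *mt-Co3*, together held 39.7%, 41.4% and 41.9% of mitochondrial reads in XN4, XN1 and CN4. The 7 complex I genes held 36.6%, 33.0% and 33.9%, *mt-Cytb* of complex III held 13.2%, 13.7% and 13.1%, and the ATP synthase genes *mt-Atp6* and *mt-Atp8* held 10.4%, 11.8% and 11.1%. *mt-Co1*, the catalytic subunit of complex IV, led in each line with 25.1%, 25.6% and 26.3%. Per length, *mt-Co1* had 162506, 165831 and 170233 reads per kb per 1000000 mitochondrial reads in XN4, XN1 and CN4. *mt-Co2* was near it with 160959, 173563 and 175469, and *mt-Atp6* had 146849, 170028 and 157875. Far below were *mt-Nd5* with 22115.5, 20390.2 and 15599.6, *mt-Atp8* with 21206.7, 9991.53 and 14669.9, and *mt-Nd6* with 917.2, 1024 and 467.0. As polyA RNA was captured, reads need not be even along a gene or an RNA. Reads per length are therefore not read as amounts of RNA. *mt-Nd6* is the gene of the chain transcribed from the opposite strand and was captured in 58.1%, 33.9% and 24.9% of XN4, XN1 and CN4 cells, whereas each gene other than *mt-Nd6* and *mt-Atp8* was captured in at least 99.55% of cells of each line.

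As ratios between lines, the differences in make-up were largest for the rarely read genes. In percent of mitochondrial reads, the differences were larger for genes such as *mt-Nd2* and *mt-Nd1*. *mt-Atp8* held 0.433%, 0.204% and 0.299% of mitochondrial reads in XN4, XN1 and CN4. *mt-Nd6* held 0.0476%, 0.0531% and 0.0242%. Both genes are short on reads and overlap a neighbor. *mt-Nd2* was at 9.79% in XN4 against 7.69% and 8.19%, and *mt-Nd1* at 8.14% in CN4 against 6.89% in XN4 and 6.61% in XN1. *mt-Nd5* was at 4.03%, 3.72% and 2.85%. The remaining genes, in the same order of lines, were *mt-Cytb* at 13.2%, 13.7% and 13.1%, *mt-Co2* at 11.01%, 11.9% and 12.0%, *mt-Nd4* at 10.97%, 10.5% and 9.75%, *mt-Atp6* at 10.0%, 11.6% and 10.8%, *mt-Nd3* at 3.65%, 3.16% and 3.89%, *mt-Co3* at 3.62%, 3.94% and 3.61% and *mt-Nd4l* at 1.27%, 1.30% and 1.05%. As a share of all reads, the XN4 to XN1 ratio of the 13 genes ranged from 1.29 for *mt-Atp6* to 3.17 for *mt-Atp8*, so that each was higher in XN4. The same held against CN4, with ratios from 1.27 for *mt-Nd1* to 2.94 for *mt-Nd6*. Between XN1 and CN4 the ratios ran from 0.681 for *mt-Atp8* to 2.19 for *mt-Nd6*. Within XN4, the make-up differed little between cells with low and high mitochondrial shares, with *mt-Co1* at 27.2% in the lowest and 24.0% in the highest quintile, and *mt-Nd5* at 3.77% and 4.23%.

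**Figure D3:**
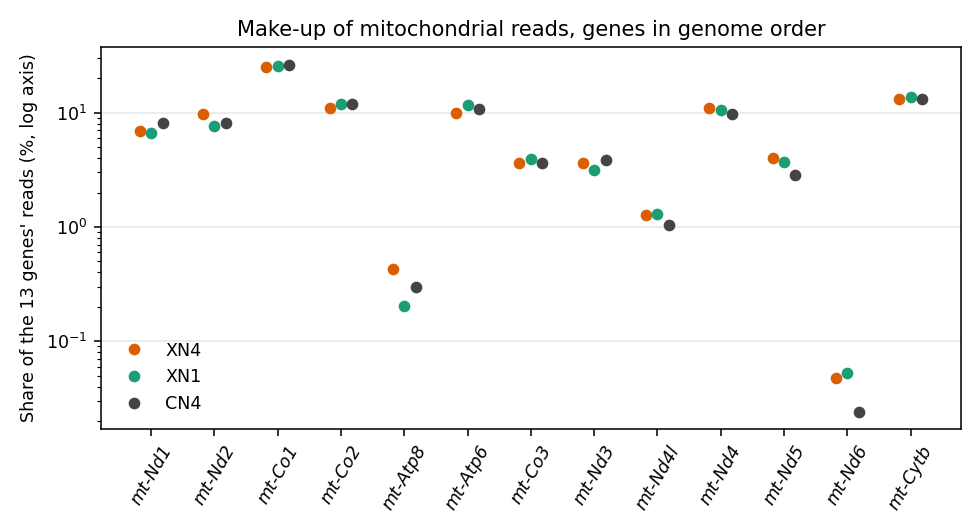
Share of each gene in the reads of the 13 mitochondrial genes (%, log axis) in XN4, XN1, and CN4, in genome order. *mt-Co1* is highest in each line at 25.1% to 26.3%, and *mt-Atp8* and *mt-Nd6* are under 0.5%.

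Nuclear members as a whole took 2.029% in CN4 (2.023% to 2.034%), 1.810% in XN1 (1.804% to 1.816%), 1.602% in XN4 (1.598% to 1.605%), and 1.190% in KN1 (1.186% to 1.195%) of reads other than those of mitochondrial and ribosomal protein genes, with exact binomial 95% intervals in parentheses. None of the 4 intervals overlapped. Of the 93 nuclear members, 86 had a mean level of at least 0.1 per 10000 over the 4 lines and were compared. CN4 was the highest line for 41 of them, XN1 for 24, XN4 for 15 and KN1 for 6, against 24.2%, 18.6%, 26.4% and 30.8% of the 10212 genes that passed the same filter. KN1 was the lowest line for 64 of the 86, against 38.8% of those genes. Summed by complex, the order CN4, XN1, XN4, KN1 from high to low was the same for complexes I (core and accessory subunits), II, III and IV and for both parts of ATP synthase, whereas the complex I assembly factors and the tissue-type isoforms of complex IV departed from it. Of the summed level of the latter, 3.26, 3.55, 2.85 and 2.38 per 10000 in CN4, XN1, XN4 and KN1, *Cox7a2l* alone made up 2.71, 2.87, 2.47 and 2.03. The 29 accessory subunits of complex I summed to 46.8, 41.4, 39.2 and 28.1 per 10000 in CN4, XN1, XN4 and KN1. The 11 widely expressed genes of complex IV summed to 49.6, 44.6, 37.3 and 26.2, and the 8 genes of complex III to 19.8, 17.3, 14.8 and 11.7. The 7 core subunits of complex I had 7.11, 6.53, 5.97 and 4.07. Single genes weighed in these sums. *Cox7c* of complex IV was at 12.5 in CN4 and 7.99 in XN1, and the complex I accessory subunit *Ndufc2* at 5.26 and 1.95. The order of the sums was not that of each gene. At any fold, 34 of the 86 members were higher in XN1 than in CN4, with a median ratio of 0.956, against 0.924 for all genes.

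**Figure D4:**
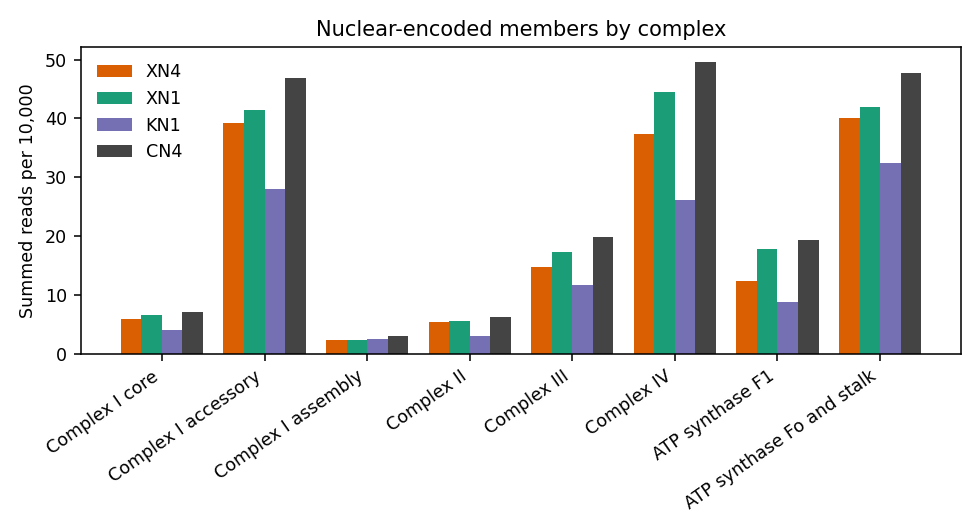
Summed level of the nuclear-encoded members (reads per 10000 reads without mitochondrial and ribosomal protein genes) by complex in the 4 lines, 1 library each. KN1 is lowest in each group except the complex I assembly factors, at 2.58 against 2.33 in XN4 and 2.40 in XN1.

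XN1 and CN4, cultured with opposite manipulations of Wnt signaling, had the fewest nuclear members called different among the pairs of lines. A gene was called different between a pair of lines when the levels differed by more than 1.5-fold. By this rule 0 members were higher in XN1, against 14.3% of all genes, and 4 of 86 were lower, against 18.8%. These shares of all genes were also the lowest among the pairs, so the ranking of the pairs was not particular to the members. The median ratio of XN1 to CN4 was 0.956 for members and 0.924 for all genes. In the quintile of cells of each line with the lowest *Malat1* share, 1 member was higher and 9 were lower, against 14.5% and 14.7%. The median ratios there were 0.942 for members and 0.961 for all genes. The 4 members lower over all cells were *Ndufc2*, *Ndufaf6*, *Ndufaf2* and *Cox7c*, of which *Cox7c* was named after its value was seen.

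*Ndufc2*, an accessory subunit of the membrane arm of complex I, stood apart in CN4. Its level was 5.26 per 10000 in CN4 (exact Poisson 95% interval 5.16 to 5.35), 1.95 in XN1 (1.89 to 2.01), 1.74 in XN4 (1.70 to 1.78) and 1.52 in KN1 (1.47 to 1.56). It was captured in 83.5%, 50.1%, 49.6% and 15.7% of cells in the same order, and after thinning to 3000 reads in 68.9%, 40.5%, 29.98% and 13.1%. *Ndufc2* lies at chr7:97400003-97407802 (plus strand, GRCm38), and an annotated processed pseudogene of 188 bases lies within it on the same strand, so reads there are uncertain. Of the 8 other genes that passed the filter and start within 400 kb, the ratio of CN4 to XN1 ran from 0.280 to 1.43, against 2.70 for *Ndufc2*. Its nearest upstream neighbor *Alg8* was at 0.281 in CN4 and 0.262 in XN1, and *Thrsp*, the nearest downstream, at 0.136 and 0.487, so the high level was not shared by these genes.

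The other 3 members differed less. *Cox7c*, a small subunit of complex IV, was at 12.5 in CN4, 7.99 in XN1, 8.72 in XN4 and 5.88 in KN1. The complex I assembly factor *Ndufaf2* was at 0.882 in CN4, 0.557 in XN1, 0.787 in XN4 and 0.858 in KN1. Another assembly factor, *Ndufaf6*, was lowest in XN1 and highest in KN1, at 0.228 in CN4, 0.122 in XN1, 0.204 in XN4 and 0.419 in KN1.

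Between XN4 and XN1, both cultured with XAV939, nuclear members were more often lower than higher in XN4. Of 86, 16 were lower in XN4, against 21.9% of all genes, and 2 were higher, against 25.8%. The median ratio was 0.885 for members and 1.04 for all genes. Against CN4, 21 were lower in XN4 and 2 were higher, while 26% and 23.3% of all genes were. At this fold, the shares of lower members were thus near the background, and those of higher members were below it. With levels taken as a mean over cells in place of summed reads, 25 members were lower in XN4 than in XN1, against 24.4% of all genes, and 28 were lower than in CN4, against 28.7%. With a fold of 2 and summed reads, 4 were lower than in XN1, against 14%, and 3 than in CN4, against 15.3%. Those shares were below the background.

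*Ndufa4*, a subunit now placed in complex IV, was the member with the lowest ratio of XN4 to XN1. Its levels were 2.77 in CN4, 3.09 in XN1, 1.09 in XN4 and 0.739 in KN1, and it was captured in 66.2%, 65.2%, 35.9% and 9.33% of cells. XN4 and KN1 were thus both well below the other pair. *Atp5mpl*, a small membrane subunit of ATP synthase, was at 1.95 in CN4, 2.43 in XN1, 1.07 in XN4 and 1.34 in KN1. *Ndufv1*, which carries the NADH binding site of complex I, was at 0.420 in CN4, 0.537 in XN1, 0.240 in XN4 and 0.235 in KN1. The complex I assembly factor *Ndufaf4* had the lowest ratio of XN4 to CN4 among members, with levels of 0.892 in CN4, 0.620 in XN1, 0.280 in XN4 and 0.458 in KN1. In the other direction, *Ndufa11* was at 0.261 in CN4, 0.293 in XN1, 0.442 in XN4 and 0.361 in KN1, and *Atp5s* was at 0.220, 0.293, 0.330 and 0.213 in the same order of lines.

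The F1 part of ATP synthase, which holds the catalytic sites, had the lowest ratio of XN4 to XN1 and to CN4 among the groups of subunits. Its 5 genes summed to 12.4, 17.8 and 19.3 per 10000 in XN4, XN1 and CN4, a ratio of 0.694 to XN1 and 0.640 to CN4. Of these genes, the catalytic beta subunit *Atp5b* was at 2.55, 4.16 and 4.92, the alpha subunit *Atp5a1* at 5.10, 7.27 and 8.18, and the gamma subunit *Atp5c1*, the rotor, at 1.65, 2.80 and 2.96. The small subunits *Atp5d* and *Atp5e* were closer to each other across the lines, at 1.49, 1.62 and 1.603 and at 1.56, 1.96 and 1.64. For the 12 genes of the Fo part and stalk the sums were 40.0, 41.9 and 47.7, a ratio of 0.955 to XN1. Complex II, which is encoded by nuclear genes alone, was at 5.36, 5.54 and 6.28.

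**Figure D5:**
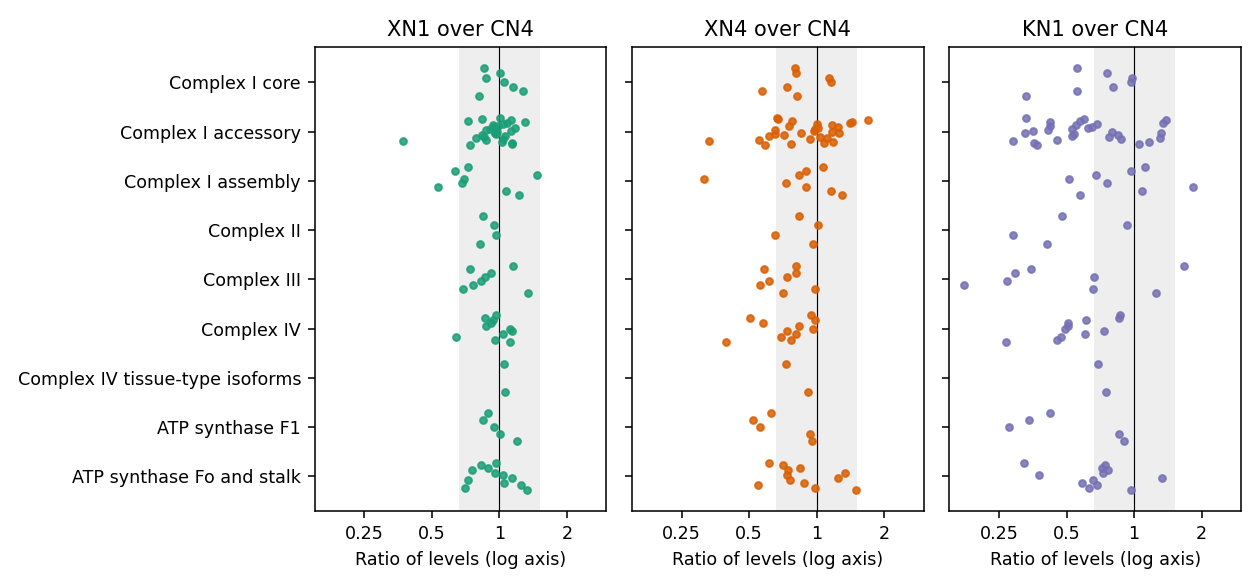
Ratio of the level in XN1, XN4 or KN1 to the level in CN4 (log axis) for the 86 nuclear members that passed the filter, 1 point per gene, grouped by complex. The 3 panels share CN4, and the grey band marks ratios within 1.5-fold. In the XN1 panel 4 members lie below the band and 0 above it, against 18.8% and 14.3% of all genes, with *Ndufc2* at 0.371. In the XN4 panel 21 lie below and 2 above, against 26% and 23.3%. In the KN1 panel 48 lie below and 2 above, against 35.5% and 26.8%.

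Nuclear members were more often lower than higher in KN1 than in each of the other lines. Of 86 members, 43 were lower in KN1 than in XN1 and 4 were higher, against 35% and 31.4% of all genes. Compared with CN4, 48 were lower and 2 higher, against 35.5% and 26.8%. Compared with XN4, 33 were lower and 5 higher, against 34% and 28.7%. The share of members lower than in XN4 was thus near the background, as it was with 27 lower, against 30.8% of all genes, when ratios were centred on the median of all genes. The median ratio of members to XN1 was 0.675, with 0.942 for all genes, to CN4 0.627 with 0.883, and to XN4 0.776 with 0.931. These comparisons share the KN1 library. Among genes spanning under 10 kb, 31 of 56 members were lower in KN1 than in XN1, against 50.6% of all such genes. Of these 56, 31 were lower than in CN4, against 52.1%, and 19 than in XN4, against 46.9%. For spans of 10 to 50 kb, 12 of 27 were lower than in XN1, against 40.4%. Of these 27, 16 were lower than in CN4, against 42.7%, and 13 than in XN4, against 38.4%. Under 10 kb, the shares were thus near those of all genes for XN1 and CN4, and below for XN4.

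*Uqcrfs1*, the Rieske iron-sulfur protein of complex III, had the lowest ratios of KN1 to XN1 and CN4. It was at 0.421 per 10000 in KN1 (exact Poisson 95% interval 0.397 to 0.446), 2.41 in CN4 (2.34 to 2.47), 1.85 in XN1 (1.79 to 1.91) and 1.35 in XN4 (1.31 to 1.38), and was captured in 4.50%, 65.4%, 50.1% and 36.8% of cells. *Uqcrc2*, a core protein of complex III, was at 0.598, 2.22, 1.84 and 1.36 in the same order of lines. *Atp5c1* was at 0.818 in KN1. Other low members were the complex I subunits *Ndufa13*, at 1.08 in CN4, 1.41 in XN1, 1.55 in XN4 and 0.457 in KN1, and *Ndufs5*, at 1.77 in CN4, 2.02 in XN1, 1.90 in XN4 and 0.636 in KN1. *Ndufa13* overlaps another gene on the same strand, so its reads are uncertain.

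Some members of the same complexes were at least as high in KN1 as in another line. *Uqcr10*, a small subunit of complex III, was at 0.903 in CN4, 1.04 in XN1, 0.727 in XN4 and 1.503 in KN1. *Uqcrq*, another subunit of complex III, was at 2.84, 3.81, 2.01 and 3.54 in that order. The complex I subunit *Ndufb8*, whose span holds another gene on the same strand, was at 0.698 in CN4, 0.547 in XN1, 0.774 in XN4 and 0.907 in KN1, and the assembly factor *Ndufaf1* at 0.197, 0.143, 0.211 and 0.220. Subunits of complex III thus lay both among the low and among the high ratios of KN1.

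The library of KN1 differed from the others in the reads per captured gene and in the genes captured per cell. A captured member had 6.80 reads per cell in KN1, against 2.28 in XN1, 2.99 in CN4 and 4.42 in XN4. The median cell of KN1 captured 9 members, against 37 in XN4, 41 in XN1 and 46 in CN4, and after thinning to 3000 reads 8 in KN1, 24 in XN4, 33 in XN1 and 32 in CN4. The ratios of all genes differed with gene span. The median ratio of KN1 to XN1 was 0.661 for all genes under 10 kb, 0.803 for 10 to 50 kb, and 1.63 over 50 kb. The members under 10 kb, 56 of the 86, had a median of 0.648, and the 27 of 10 to 50 kb had 0.708. For KN1 to XN4, the medians under 10 kb were 0.811 for members and 0.700 for all genes, and those of 10 to 50 kb 0.694 and 0.827. For KN1 to CN4, they were 0.605 and 0.645 under 10 kb, and 0.625 and 0.763 for 10 to 50 kb. Members were thus above all genes of the same span only for KN1 to XN4 under 10 kb, and below them in the other comparisons of these classes. The 3 members over 50 kb, *Atp5o*, *Ndufaf2* and *Ndufs4*, had ratios of KN1 to XN1 of 0.891, 1.54 and 1.13, of which the span of *Atp5o* holds other genes on the same strand, so its span and reads are uncertain. The part of span in the values of KN1 was not tested.

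Within KN1, cells with less *Malat1* had a higher share of nuclear members. In the quintile of KN1 cells with the lowest *Malat1* share (59.6 per 10000), members held 2.06% of reads, and in the highest (707 per 10000) 0.764%. The same quintiles held 2.07% and 1.45% in XN1, 2.41% and 1.69% in CN4, and 2.04% and 0.941% in XN4, where both shares have the same denominator. *Malat1* itself was at 11.8, 6.10 and 26.6 per 10000 in the lowest quintiles of XN1, CN4 and XN4, all below that of KN1. The share of members in the lowest quintile of KN1 was thus within the range of the lowest quintiles of the other lines. In that quintile of each line, a comparison added after seeing the data, 20 members were lower and 13 higher in KN1 than in XN1, against 27.6% and 33% of all genes, with median ratios of 0.918 for members and 1.05 for all genes. Likewise, 13 members were lower and 11 higher in KN1 than in XN4, against 27.8% and 33.9% of all genes, with median ratios of 1.01 for members and 1.07 for all genes. Also in these cells, 25 members were lower and 10 higher in KN1 than in CN4, against 27.4% and 30.5% of all genes, with median ratios of 0.878 for members and 1.01 for all genes. The median of members was thus below that of all genes in each of these comparisons, and the quintiles were not matched in *Malat1*. The part of nuclear RNA in the low levels of KN1 was not tested, and line and library cannot be told apart.

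Over the 4 lines, the highest level of a member exceeded the lowest by more than 1.5-fold for 64 of 86, against 88.7% of all genes. Without KN1 this held for 30, against 66.0%, and without XN4 for 58, against 79.1%. Between XN1 and CN4 alone it held for 4, against 33.1%.

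Of the core subunits chosen for description, some were nearly even over the lines. *Cox4i1*, the regulatory subunit of complex IV, was at 3.48 in CN4, 3.37 in XN1, 3.27 in XN4 and 3.001 in KN1, and overlaps another annotated gene. *Sdhb*, the iron-sulfur subunit of complex II, was also even, at 0.840, 0.795, 0.855 and 0.784 in the same order. *Sdha*, the flavoprotein of the same complex, was at 2.02, 1.71, 1.68 and 0.966. The complex I core subunit *Ndufs1* was at 0.974, 0.833, 0.778 and 0.539. *Uqcrc1*, a core protein of complex III, was at 1.02, 0.881, 0.751 and 0.677. *Sdha* and *Ndufs1* were thus lowest in KN1, whereas *Cox5a* of complex IV was lowest in XN4, at 2.09, 1.80, 1.06 and 1.79.

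Complex IV has isoforms that replace widely expressed subunits in muscle, lung, testis and other tissues, and most were rarely captured. Of 9 such members, *Cox7a2l* and *Cox6b2* passed the filter, and the other 7 are the nuclear members that did not. *Cox7a2l*, a factor of supercomplex assembly, was captured in 71.1%, 65.4%, 61.9% and 21.1% of CN4, XN1, XN4 and KN1 cells. *Cox6b2*, known from testis, was at 0.460, 0.482, 0.336 and 0.319 per 10000 and captured in 18.4%, 16.3%, 13.5% and 5.53%, while its counterpart *Cox6b1* was captured in 86.5%, 75.8%, 73.6% and 26.1%. *Cox7a2*, the widely expressed counterpart of *Cox7a1*, was at 1.59 in CN4, 1.81 in XN1, 1.17 in XN4 and 1.17 in KN1. Subunit c of ATP synthase, which forms the membrane ring, is encoded by *Atp5g1*, *Atp5g2* and *Atp5g3*. *Atp5g1* was at 2.08, 1.73, 1.48 and 1.54 in the same order, *Atp5g2* at 10.0, 8.97, 8.42 and 7.21, and *Atp5g3* at 9.75, 7.39, 7.25 and 7.46. None of the 3 subunit c genes differed by 1.5-fold between any pair of lines.

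The isoforms of heart and skeletal muscle were captured in few cells, with some differences between lines. In the full tables, *Cox7a1* was captured in 0.435%, 4.91% and 3.37% of cells in XN4, XN1 and CN4, and *Cox6a2* in 0.343%, 1.96% and 0.116%. *Cox8b* was captured in 0.0114%, 0.906% and 1.26%, against 79.1%, 87.0% and 91.0% for *Cox8a* in the smaller tables. Free RNA from lysed cells was not measured in these libraries, so capture at such rates is not read as expression. *Ndufa4l2*, a paralog of *Ndufa4* known as a hypoxia target, was highest in XN4, with 2.14%, 0.111% and 0.138% of cells. *Cox4i2*, *Cox7b2* and *Cox8c* had 0 to 14 reads in each full table, with 0 for *Cox8c* in XN4, a count of 0 that allows up to 3 reads.

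Among pathway genes outside the symbol rule, 4 of 14 electron carriers, inhibitors and factors were lower and 1 higher in XN4 than in XN1, and 6 were lower and 2 higher in KN1 than in XN1, against the 21.9%, 25.8%, 35% and 31.4% of all genes given above. *Cycs*, cytochrome c, which carries electrons from complex III to IV, was at 1.35 in CN4, 1.28 in XN1, 0.405 in XN4 and 0.350 in KN1. *Higd1a*, a hypoxia-inducible protein of complex IV, was at 0.850, 0.845, 0.221 and 0.560 in the same order, and *Tmem126b*, a complex I assembly factor, at 0.274, 0.254, 0.468 and 0.123. Like *Ndufa4*, *Cycs* was low in both XN4 and KN1. Of 26 other assembly factors that passed the filter, 11 were lower and 4 higher in KN1 than in XN1, and 4 lower and 3 higher in XN4 than in XN1, counts set against the same shares of all genes. Of these, *Cox15*, which makes the heme A of complex IV, was at 0.228, 0.224, 0.184 and 0.0508. *Coa5* and *Coa6*, assembly factors of complex IV, had 0.387 and 0.147 in KN1 against 1.38 and 0.507 in XN1.

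Genes of the machinery that expresses the mitochondrial genome lay on both sides between XN4 and the other lines. Of 20 such genes that passed the filter, 2 were higher and 2 lower in XN4 than in XN1, and 1 was higher and 5 lower than in CN4, with median ratios of 0.996 and 0.848. Of all genes, 25.8% were higher and 21.9% lower in XN4 than in XN1, and 23.3% and 26% than in CN4. *Mterf4*, at 0.109 in CN4, 0.0773 in XN1, 0.198 in XN4 and 0.138 in KN1, was the gene past the fold above both lines, and *Mtpap*, a mitochondrial polyA polymerase at 0.425, 0.278, 0.461 and 0.308, was the other past it above XN1, both named after their values were seen. *Tfam*, which packages mitochondrial DNA and starts its transcription, was at 0.736 in CN4, 0.532 in XN1, 0.676 in XN4 and 0.401 in KN1. *Tfb2m*, a transcription factor of the organelle, was at 0.374, 0.327, 0.291 and 0.123. *Tefm*, its elongation factor, was at 0.162, 0.127, 0.0989 and 0.0580, and *Gfm1*, a translation elongation factor, at 0.743, 0.617, 0.343 and 0.189.

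Of 10 regulators of nuclear respiratory genes, 3 were higher and 3 lower in XN4 than in XN1, 2 higher and 4 lower in XN1 than in CN4, and 5 higher and 4 lower in KN1 than in XN1. The shares of all genes were 25.8% and 21.9%, 14.3% and 18.8%, and 31.4% and 35%. *Ppargc1a*, a coactivator of mitochondrial biogenesis, had 11 reads in 11 cells of XN4 (0.00265 per 10000), against 0.324 in XN1, 0.576 in KN1 and 0.424 in CN4. The KN1 value rests on 1587 reads in 256 cells and that of XN1 on 624 reads in 430 cells. Its relative *Ppargc1b* was at 0.105 in CN4, 0.0514 in XN1, 0.119 in XN4 and 0.459 in KN1, and the orphan receptor gene *Esrrg* at 0.0702, 0.176, 0.0325 and 0.316 in the same order. Of XN4, XN1 and CN4, the library with the highest mitochondrial share of reads was thus that with the lowest level of *Ppargc1a*, and a relation between them was not tested.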

How the data were processed

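Transcripts of single cells were measured in 1 BD Rhapsody library for each of 4 lines. Per the file headers, the authors ran the BD Rhapsody WTA Analysis Pipeline 1.12.1 (GRCm38, GENCODE M19) on XN4, XN1 and CN4, with reads in introns counted. By the study's methods, the same pipeline and genome were used for each line. The version and the counting of introns for KN1 are not given in the sources used here. The deposited tables of reads per cell hold counts of reads and not of molecules, so PCR copies are counted. For the other tables, the authors took randomly selected cells, left out mitochondrial and ribosomal protein genes in Seurat 4.3.0, and deposited the natural log of 1 plus reads per 10000.

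Reads were recovered from those values and were whole within 0.01. Levels are summed reads of a gene per 10000 summed reads, with exact Poisson or exact binomial (Clopper-Pearson) 95% intervals that cover counting error only. Genes with a mean level of at least 0.1 over the 4 lines were compared by a fold of 1.5. The table of XN4 ends before the last genes in alphabetical order, and 23 genes past its end were left out. A level under 3 reads, as for a gene not listed in a table (310 genes that passed the filter, 0 of them members), was set to 3 reads in ratios. Thinning drew 3000 reads per cell and left out 63, 918 and 205 cells of XN4, XN1 and CN4 in the full tables and 465, 648, 464 and 250 of XN4, XN1, KN1 and CN4 in the others. Doublets were neither called nor removed. No library had a replicate, so no test was made. Coordinates and spans are from GENCODE M21 (GRCm38). Members and gene lists were chosen with earlier results of these data known. Genes named are the 13 mitochondrial genes, at most 3 members with the largest ratio past the fold in each direction of each pair, isoforms, chosen core subunits, and at most 3 genes of each pathway list. A further gene covered by this rule is not reported here. *Malat1*, *Col1a2*, *Vim*, *Sox9*, *Msi1*, *Atp5a1*, *Atp5d*, *Atp5e*, *Atp5o*, *Ndufs4*, *Alg8*, *Thrsp*, *Mterf4*, *Mtpap* and *Tfam* were named after their values were seen. Python 3.11.15, numpy 2.4.6, scipy 1.17.1, pandas 2.3.3 and matplotlib 3.10.9 were used.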

Additional observations from a re-analysis of the deposited data

How the results depend on the processing

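No paired analysis was possible because each line is 1 library. Of 81 alternative values, 37 stayed within their counting interval or within 1.5 times the count and 44 moved. The mitochondrial share in XN4, XN1 and CN4 was 28.7%, 15.9% and 16.2% as a mean over cells, 28.7%, 15.5% and 16.004% in thinned cells, 24.5%, 15.3% and 15.3% without the 5% of cells with the most reads, 23.5%, 15.2% and 15.9% in the cells of the smaller tables, and 24.2%, 16.03% and 16.2% without ribosomal protein genes in the denominator. XN4 was highest under each of these. The nuclear share in XN4, XN1, KN1 and CN4 was 1.43%, 1.75%, 1.14% and 1.96% as a mean over cells, 1.47%, 1.79%, 1.15% and 1.99% in thinned cells, and 1.55%, 1.79%, 1.16% and 1.99% without the deepest cells. It was 1.63% in XN4 and 2.08% in CN4 over all cells of the full tables, and 1.15%, 1.44% and 1.63% in XN4, XN1 and CN4 with all genes in the denominator. The order of the lines was the same under each. Members past each limit follow as a total with those higher and lower in the line named first, and the shares of all genes higher and lower. With a fold of 2, there were 4 between XN4 and XN1 (0 and 4, against 14.6% and 14%), 3 between XN4 and CN4 (0 and 3, against 14.4% and 15.3%), 1 between XN1 and CN4 (0 and 1, against 7.56% and 7.32%), 16 between KN1 and XN4 (2 and 14, against 19.9% and 22.9%), 28 between KN1 and XN1 (1 and 27, against 22% and 24.2%) and 27 between KN1 and CN4 (0 and 27, against 17.8% and 23.6%). Between XN1 and CN4, ratios centred on the median of all genes gave 1 and 2 (against 17.5% and 14.3%), and a mean level of at least 1 per 10000 gave 2 (0 and 2 of 58, against 13.5% and 17.8%). In the quintile of cells with the lowest *Malat1* share, chosen after seeing the data, there were 14 between XN4 and CN4 (0 and 14, against 21.2% and 23.3%), 10 between XN1 and CN4 (1 and 9, against 14.5% and 14.7%) and 24 between KN1 and XN4 (11 and 13, against 33.9% and 27.8%), where the main counts were 5 and 33. Between XN4 and XN1 there were 12 in these cells (2 and 10, against 21% and 21.8%). The median ratio of members of KN1 to XN4 was 0.776 in all cells and 1.01 in these, with 0.931 and 1.07 for all genes. Members whose highest level exceeded the lowest by 1.5-fold were 30 without KN1, against 66.0% of all genes, and 58 without XN4, against 79.1%. Without XN4 and KN1 they were 4, against 33.1%. These sets were also chosen after seeing the data. The cause of these moves was not tested. Counting error was at most 13.6% of the level of a compared member, with reads taken as independent although PCR copies are counted.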
